A study of Homo sapiens with 8 samples.

Results

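The genes described here are 10 heat shock chaperones, chosen by name: HSPA8, HSPA5 and HSPA9 of the HSP70 family, HSPA4 and HSPH1 of the related HSP110 family, HSP90AA1 and HSP90AB1 of the HSP90 family, the mitochondrial chaperonin pair HSPD1 and HSPE1, and the J-domain protein DNAJA1. They are 10 of 62639 genes in the transcript table, and 122 of its 254070 transcripts belong to them, of which 80 had at least 1 count. The cells were MOLM-13, a human line grown from acute myeloid leukemia. Total RNA of 4 libraries with a doxycycline (dox) inducible shRNA against the splicing factor PTBP1 (shPTBP1, genotype PTBP1 KD) was compared with that of 4 libraries with a scrambled shRNA (shControl, genotype WT) by nanopore long-read cDNA sequencing. All 8 libraries came from cells kept in dox for 9 days, and in both groups the lentivirus also expresses mCherry, and a truncated LNGFR together with the shRNA. The labels name 1 shRNA construct against PTBP1 and do not say whether the transduced cells were clones. They call the libraries biological replicates without saying whether each came from a culture of its own, so the p-values cover the spread between these libraries.

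Chaperones bind unfolded or partly folded proteins. HSP70 proteins take up client peptides in a cycle driven by ATP, in which J-domain proteins deliver the client and start ATP hydrolysis, and HSP110 proteins exchange the nucleotide. HSP90 proteins act later on kinases, steroid hormone receptors and other near-native clients, and the chaperonin of HSPD1 and HSPE1 (HSP60 and HSP10) encloses proteins in the mitochondrial matrix. Many of these genes carry heat shock elements, inverted repeats bound by heat shock factor 1 (HSF1), in front of their transcription start, while ER chaperones such as HSPA5 are controlled by the unfolded protein response. Leukemia cells, like other fast-growing cells, are known for high chaperone levels.

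The promoter windows of these genes were searched because a shared element is the textbook link between them. RefSeq windows (GRCh38.p14) of 300 bases, 250 before and 50 after a gene start, matched all 10 genes with 14 windows. The heat shock core, written here as GAANNTTC or TTCNNGAA and searched on both strands (each reads the same on both), was found in windows of 6 of the 10 genes, against 13.5% of all 35116 windows. A run of 3 or more alternating repeats, which contains overlapping copies of the core, was found for 5 genes, against 0.490% of all windows. The ER stress element was found for HSPA5 alone of the 10 genes, against 0.0769% of all windows. A window count is not a gene count, and a match is a description of letters. The 30 bases around these elements are shown 5′ to 3′ on the strand of the gene, with the run of repeats or the ER stress element in capitals.
HSPA8, chr11:123062170-123062199, minus strand: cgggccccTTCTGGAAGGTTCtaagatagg
HSPA8, chr11:123062345-123062374, minus strand: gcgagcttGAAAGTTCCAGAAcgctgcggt
HSPD1, chr2:197500061-197500090, minus strand: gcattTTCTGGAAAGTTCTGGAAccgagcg
HSP90AB1, chr6:44247770-44247799, plus strand: ggagcaggTTCTGGAAGATTCatgggctcc
HSP90AB1, chr6:44247823-44247852, plus strand: tgagattgTTCTGGAAGCTTCtggattctg
DNAJA1, chr9:33025268-33025297, plus strand: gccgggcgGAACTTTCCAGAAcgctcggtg
HSP90AA1, chr14:102087111-102087140, minus strand: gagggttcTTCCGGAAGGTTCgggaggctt
HSPA5, chr9:125241385-125241414, minus strand: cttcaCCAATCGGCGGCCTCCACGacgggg
The elements lay at different distances from the start of the transcript that holds most of each gene's counts. They began 55 and 230 bases ahead of that start in HSPA8, 245 bases ahead in HSPD1 and 66 bases ahead in HSPA5. In HSP90AB1 they began 677 and 730 bases after it, and in DNAJA1 3 bases after it. In HSP90AA1 the element began 52554 bases after the start of HSP90AA1-202, which holds most counts. The same element began 88 bases ahead of the start of HSP90AA1-201, the shorter of the main transcripts.

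The libraries held between 1528449 and 1613342 counts, and PTBP1, the target of the shRNA, was at 9.88 ± 3.55 CPM with shPTBP1 and 47.5 ± 7.81 CPM with shControl (SD, n = 4 each), without overlap. The myeloid identity of the line was seen in counts for all 8 myeloid markers examined, whose summed level ran from 4080 to 4843 CPM with shPTBP1 and from 4167 to 4307 CPM with shControl. The T cell markers CD3E, CD3D and CD2 were at 0, and the B cell, erythroid, epithelial and fibroblast markers had 11, 2, 50 and 95 counts over all 8 libraries. CPM here and below is the TMM normalized count of a gene or transcript per 1000000 counts.

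The 10 chaperone genes together held 1.27%, 1.19%, 1.18% and 1.14% of the counts of shPTBP1 replicates 1 to 4, and 1.03%, 1.11%, 1.12% and 1.12% of those of shControl replicates 1 to 4. All shPTBP1 libraries were above all shControl libraries. The share was not tested, most of it is HSPA8 and HSP90AB1, and HSPA5 and HSP90AA1 had lower means with shPTBP1. In bulk RNA, a different number of cells and a different amount of RNA per cell cannot be told apart.

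Per kilobase of transcript, the levels of the 10 genes spanned more than 2 orders of magnitude. In shControl cells HSPA8 was the highest at 2082 ± 193 CPM per kb, followed by HSP90AB1 at 1158 ± 57.4, HSPD1 at 587 ± 39.0, HSPE1 at 398 ± 37.0, HSP90AA1 at 314 ± 43.1 and DNAJA1 at 167 ± 13.5 (SD, n = 4). The cytosolic HSPA8 and HSP90AB1 thus stood at the top. The other HSP70 and HSP110 genes were much lower, with HSPA9 at 24.1 ± 0.817, HSPA4 at 14.6 ± 3.07, HSPA5 at 13.8 ± 1.59 and HSPH1 at 12.1 ± 0.504 CPM per kb. HSPA4, HSPA5 and HSPH1 overlapped between neighbours in this order, and the other neighbours did not. This order and this span rest on dividing by transcript length. Without it HSP90AA1 (1072 CPM) and DNAJA1 (387 CPM) were above HSPE1 (222 CPM). The shControl means then ran from 4710 CPM for HSPA8 to 49.7 CPM for HSPH1. Whether counts of long reads need this division was not tested. With shPTBP1 the order per kilobase was the same down to HSPA4, and HSPH1 and HSPA5 changed places within overlapping ranges.

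Of the 10 genes, HSPA8 rose and the other 9 did not pass the test (edgeR quasi-likelihood, Benjamini-Hochberg adjusted p under 0.05 over 7597 genes). Of all genes tested, 2.36% were called higher and 3.19% lower. The groups did not overlap for 3 of the 10 genes, HSPA8, HSPD1 and HSPE1, against 12.7% of all genes tested. An unadjusted p under 0.05 was reached by 5 genes (HSPA8, HSPD1, HSPE1, HSP90AB1 and HSP90AA1), against 19.2% of all genes. The log2 fold change was above 0 for 8 genes and below 0 for 2, with a median of 0.08 beside -0.000141 for all genes. The test by DESeq2 called 3 genes higher, HSPA8, HSPD1 and HSP90AB1, where 3.44% of all genes it tested were called higher.

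**Figure D1:**
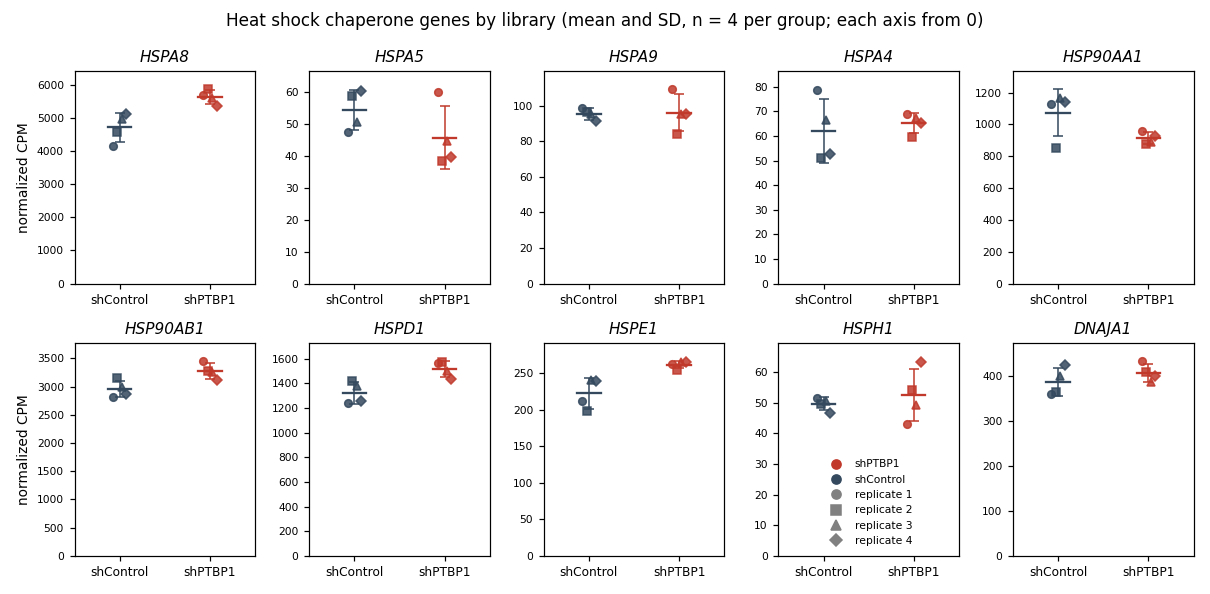
Normalized CPM (vertical axis, from 0 in each panel) of the 10 chaperone genes in each shControl and shPTBP1 library, with the replicate number as the symbol and the mean and SD of 4 libraries as bars. The groups are apart for HSPA8, HSPD1 and HSPE1, and shControl replicate 2 lies below the other shControl libraries for HSP90AA1.

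HSPA8 (HSC70, ENSG00000109971, chr11:123057489-123063230, minus strand) is the constitutive cytosolic HSP70, which folds new proteins, uncoats clathrin vesicles and brings substrates to chaperone-mediated autophagy. Its level was 5688, 5859, 5602 and 5372 CPM in shPTBP1 replicates 1 to 4 and 4152, 4586, 4973 and 5128 CPM in shControl replicates 1 to 4. The lowest shPTBP1 library was above the highest shControl library, and the shControl libraries spread more widely. The mean was 5630 ± 203 against 4710 ± 436 CPM, an increase of 19.5%, with a log2 fold change of 0.26 (SE 0.06) and an edgeR adjusted p of 0.0332. The call was lost in 6 of the 8 fits that left out 1 library, namely each shPTBP1 replicate and shControl replicates 1 and 2, where the adjusted p lay between 0.0573 and 0.101 and the log2 fold change between 0.20 and 0.28.

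Nearly all of HSPA8 was the transcript HSPA8-224, with 98.9% of its counts in both groups. This 2264 base protein-coding transcript of 9 exons was itself called higher, with a log2 fold change of 0.25 (edgeR adjusted p = 0.0311), a call kept in 2 of 8 fits without 1 library (adjusted p from 0.0279 to 0.0912). No other HSPA8 transcript reached 5% of the gene. Counts on 17 annotated HSPA8 pseudogenes came to 2 over all libraries, next to 64168 for HSPA8. The authors had kept reads of high mapping quality alone. Reads that match a gene and its copies alike could thus be missing, here and in the pseudogene counts below. The stress-inducible and testis relatives were far below HSPA8, with 345 counts in all for HSPA1B, 3 for HSPA1A, 24 for HSPA2, 4 for HSPA6 and 0 for HSPA1L, where HSPA1A and HSPA1B are near-identical copies whose counts are uncertain.

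HSPA5 and HSPA9 are the HSP70 proteins of the ER and of the mitochondria, and neither was called. HSPA5 (BiP, chr9:125234853-125241382, minus strand) stood at 60.1, 38.3, 44.8 and 39.7 CPM in shPTBP1 replicates 1 to 4 and at 47.3, 58.6, 50.7 and 60.3 CPM in shControl replicates 1 to 4. Of the shPTBP1 libraries, 3 were below all shControl libraries, and replicate 1 was level with the highest of them. The log2 fold change was -0.24 (95% interval -0.57 to 0.08, adjusted p = 0.412), on 58 to 95 counts per library. Without shPTBP1 replicate 1 it was -0.40 (adjusted p = 0.108).

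HSPA9 (mortalin, which pulls proteins through the inner mitochondrial membrane, chr5:138553756-138575675, minus strand) was at 96.1 ± 10.5 CPM with shPTBP1 and 95.4 ± 3.24 CPM with shControl. Its log2 fold change was 0.01 (95% interval -0.19 to 0.21, adjusted p = 0.970), and its sign turned with 1 library left out. HSPA8 made up 97.5 ± 0.348% of the summed counts of the 3 HSP70 genes with shPTBP1 and 96.9 ± 0.279% with shControl. That difference of 0.638 percentage points did not pass the exact permutation test (p = 0.0857, 0.190 after adjustment over the 5 shares tested).

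HSP90AA1 and HSP90AB1, the stress-responsive and the constitutive cytosolic HSP90, had log2 fold changes of opposite sign, and neither passed the test. HSP90AA1 (chr14:102080742-102139699, minus strand) was at 958, 877, 887 and 928 CPM in shPTBP1 replicates 1 to 4 and at 1130, 852, 1164 and 1141 CPM in shControl replicates 1 to 4. The shControl libraries were split, with replicate 2 below every shPTBP1 library and the other 3 above all of them. The log2 fold change was -0.23 (SE 0.09, 95% interval -0.42 to -0.05, edgeR adjusted p = 0.155). Without shControl replicate 2 it was -0.33 (adjusted p = 0.00541), a lower call, beside an adjusted p of 0.163 to 0.320 without each other library in turn, and without shControl replicate 2 HSPA8 was not called and HSPD1 was called higher.

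HSP90AB1 (chr6:44246166-44253888, plus strand) was at 3461, 3272, 3267 and 3117 CPM in shPTBP1 replicates 1 to 4 and at 2820, 3152, 2986 and 2874 CPM in shControl replicates 1 to 4. Only shPTBP1 replicate 4 and shControl replicate 2 overlapped. Its log2 fold change of 0.15 (SE 0.05) had an edgeR adjusted p of 0.136, DESeq2 gave an adjusted p of 0.0309, and the fits without 1 library gave 0.0702 to 0.281. HSP90AA1 made up 21.7%, 21.1%, 21.4% and 22.9% of the HSP90 counts in shPTBP1 replicates 1 to 4, and 28.6%, 21.3%, 28.1% and 28.4% in shControl replicates 1 to 4. Again shControl replicate 2 sat with the shPTBP1 libraries. The difference of -4.81 percentage points gave p = 0.114 in the exact permutation test (adjusted p = 0.190), and without that library the difference was -6.58 points (adjusted p = 0.0714). HSP90 pseudogenes, counted after the values were seen, held 8 counts in all on 11 genes.

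**Figure D2:**
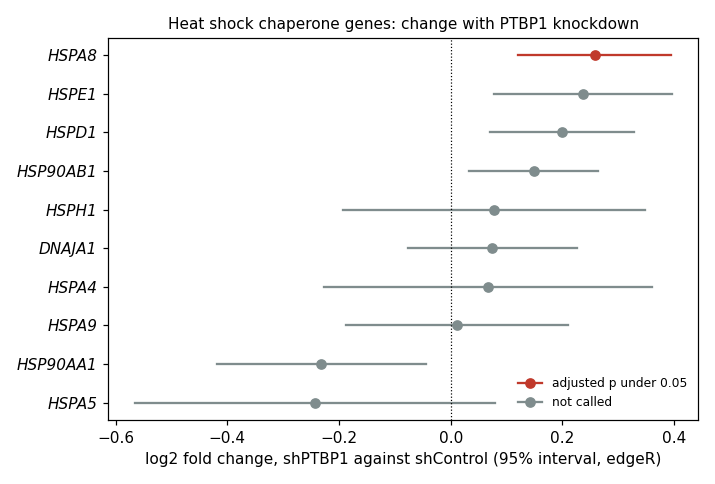
Log2 fold change of each chaperone gene (horizontal axis, shPTBP1 against shControl, 95% interval from edgeR), in order of size. HSPA8 is the called gene at 0.26, and the intervals of HSPE1, HSPD1, HSP90AB1 and HSP90AA1 also leave out 0, without passing adjustment.

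Long reads divided HSP90AA1 into 2 main transcripts with different starts. HSP90AA1-201 (3228 bases, 11 exons) and HSP90AA1-202 (3510 bases, 12 exons) start 52642 bases apart and share 9 exons whole, and their ends lie 307 bases apart. The 250 bases ahead of each RefSeq start are shown because the heat shock element separates these starts, with the cores in capitals. The distal start, at which HSP90AA1-202 begins 63 bases further in, has no core in its window, and the proximal start of HSP90AA1-201 has 3 cores that begin 88, 83 and 68 bases ahead of it, the former pair overlapping.
HSP90AA1 distal, chr14:102139750-102139999, minus strand: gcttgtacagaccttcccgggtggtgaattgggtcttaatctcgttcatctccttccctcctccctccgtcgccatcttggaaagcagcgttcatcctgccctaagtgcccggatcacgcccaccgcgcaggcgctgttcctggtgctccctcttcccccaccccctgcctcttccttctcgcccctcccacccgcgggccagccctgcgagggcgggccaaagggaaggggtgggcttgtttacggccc
HSP90AA1 proximal, chr14:102087045-102087294, minus strand: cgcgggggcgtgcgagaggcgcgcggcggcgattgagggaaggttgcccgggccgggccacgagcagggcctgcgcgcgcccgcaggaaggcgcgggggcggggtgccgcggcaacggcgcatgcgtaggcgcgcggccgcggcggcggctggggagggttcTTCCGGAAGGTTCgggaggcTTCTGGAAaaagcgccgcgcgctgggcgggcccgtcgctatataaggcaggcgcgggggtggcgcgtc

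HSP90AA1-201 was called lower after PTBP1 knockdown. Its level was 311, 273, 280 and 258 CPM in shPTBP1 replicates 1 to 4 and 371, 317, 356 and 366 CPM in shControl replicates 1 to 4. The groups did not overlap, although shPTBP1 replicate 1 and shControl replicate 2 were close. Its log2 fold change of -0.33 (SE 0.08) had an edgeR adjusted p of 0.0241 (over 10207 transcripts), and it lost the call in 6 of 8 fits without 1 library (adjusted p from 0.0593 to 0.0876), keeping it without shPTBP1 replicate 1 or shControl replicate 2. HSP90AA1-202 was at 673, 623, 627 and 693 CPM with shPTBP1 and at 797, 562, 837 and 804 CPM with shControl, and its log2 fold change of -0.20 was not called (adjusted p = 0.327). Without shControl replicate 2 it was -0.32 and called lower (adjusted p = 0.00972).

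The shares of these transcripts overlapped between the groups. HSP90AA1-201 made up 29.97 ± 2.02% of the gene with shPTBP1 and 32.2 ± 2.71% with shControl (exact permutation p = 0.314), and the test of transcript usage did not call it. A call for one transcript and none for the other is therefore no test of a difference between them. A read that covers shared exons alone could be counted for either transcript, and its part in these shares was not tested.

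**Figure D3:**
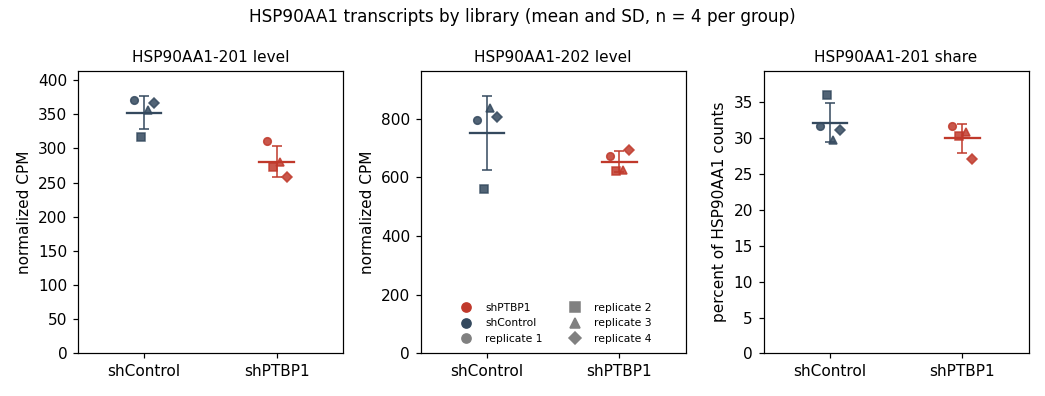
Normalized CPM of HSP90AA1-201 and HSP90AA1-202 and the percent of HSP90AA1 counts on HSP90AA1-201 (vertical axes, from 0) in each library, with the mean and SD of 4 libraries. HSP90AA1-201 is lower in every shPTBP1 library, shControl replicate 2 is the low point for HSP90AA1-202, and the shares overlap.

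HSPD1 (chr2:197486584-197516737, minus strand) and HSPE1 (chr2:197500140-197503449, plus strand), the barrel and the lid of the mitochondrial chaperonin, were both higher in every shPTBP1 library than in any shControl library, and neither was called by edgeR with all libraries. HSPD1 was at 1565, 1572, 1498 and 1435 CPM in shPTBP1 replicates 1 to 4 and at 1241, 1415, 1378 and 1254 CPM in shControl replicates 1 to 4. HSPE1 was at 262, 255, 265 and 265 CPM in shPTBP1 replicates 1 to 4 and at 212, 198, 240 and 239 CPM in shControl replicates 1 to 4. For both genes the groups lay apart, and the shPTBP1 libraries of HSPE1 were the most tightly grouped of all 10 genes, with an SD of 1.77% of the mean. The log2 fold change was 0.20 for HSPD1 (SE 0.06, edgeR adjusted p = 0.0750) and 0.24 for HSPE1 (SE 0.07, edgeR adjusted p = 0.0862). HSPD1 passed with DESeq2 (adjusted p = 0.0118) and without shControl replicate 2 (0.0444), while the fits without another library gave 0.0866 to 0.190, and HSPE1 passed in none of the settings run.

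The chaperonin genes are neighbours that point away from each other. HSPE1 lies within the annotated span of HSPD1 on the opposite strand, and 538 bases lie between the starts of their main transcripts. Whether counting used strand is not given in the sources used here, so reads from overlapping parts of the pair cannot be told apart. HSPE1 made up 14.7 ± 0.726% of their summed counts with shPTBP1 and 14.4 ± 1.56% with shControl (exact permutation p = 0.771, 0.857 after adjustment). HSPD1-202 held 94.3% and 94.8% of HSPD1, and HSPE1-201 held 97.3% and 97.5% of HSPE1, with shPTBP1 and shControl. HSPD1 has 18 annotated pseudogenes with 4 counts in all, HSPE1 has 26 with 1 count, and the HSPE1-MOB4 read-through had 0 counts.

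HSPA4 and HSPH1 (APG-2 and HSP105), the HSP110 nucleotide exchange factors that also keep aggregates soluble, were near 50 to 65 CPM and were not called. HSPA4 (chr5:133052013-133106449, plus strand) was at 65.2 ± 4.12 CPM with shPTBP1 and 62.2 ± 13.03 CPM with shControl, with shControl replicate 1 the highest of all 8 libraries at 78.7 CPM. Its log2 fold change was 0.07 (95% interval -0.23 to 0.36, adjusted p = 0.848), and it turned just below 0 without shControl replicate 2 or 4. HSPH1 (chr13:31134973-31162388, minus strand) was at 43.0, 54.2, 49.4 and 63.4 CPM in shPTBP1 replicates 1 to 4 and at 51.6, 49.7, 50.7 and 46.8 CPM in shControl replicates 1 to 4. The shPTBP1 libraries held both the lowest and the highest value. The log2 fold change was 0.08 (95% interval -0.19 to 0.35, adjusted p = 0.804). HSPH1 made up 44.4 ± 4.97% and 44.8 ± 4.30% of the summed HSP110 counts (exact permutation p = 0.857).

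The high HSPH1 value of shPTBP1 replicate 4 rested on 1 transcript. HSPH1-203, a transcript of 3 exons at the 3′ part of the gene, had 31 counts there and 0 counts in each of the other 7 libraries. Summed without it, HSPH1 had a log2 fold change of -0.07 (adjusted p = 0.816).

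DNAJA1 (HDJ2, chr9:33025273-33039907, plus strand), the farnesylated J-domain partner of HSPA8, did not pass the test. It was at 435, 409, 387 and 400 CPM in shPTBP1 replicates 1 to 4 and at 360, 364, 400 and 425 CPM in shControl replicates 1 to 4. The groups overlapped widely, and the log2 fold change was 0.07 (95% interval -0.08 to 0.23, adjusted p = 0.622), or 0.04 without shControl replicate 1 and 0.12 without shControl replicate 4. Set against HSPA8, DNAJA1 was 6.75 ± 0.310% of the pair's counts with shPTBP1 and 7.61 ± 0.281% with shControl. Every shPTBP1 library was below every shControl library in this share, with a mean difference of -0.853 percentage points. That difference did not pass, since the exact permutation p of 0.0286, the smallest the design allows, was 0.143 after adjustment over the 5 shares. HSPA8 is most of the pair, so this share is not independent of the HSPA8 rise given above. DNAJA1-201 held all counts of the gene.

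Of the 5 genes with a run of heat shock repeats in a promoter window, HSPA8 alone was called by edgeR with all libraries. The log2 fold changes were 0.26 for HSPA8, 0.20 for HSPD1, 0.15 for HSP90AB1, 0.07 for DNAJA1 and -0.23 for HSP90AA1. HSP90AA1-201, whose start has the element, was the transcript called lower. HSPE1, at 0.24, has no core in its own window. The run shown for HSPD1 lies between the starts of HSPD1 and HSPE1, just beyond that window. Whether the elements bear on any of these changes was not tested.

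Transcript make-up was described for the 21 transcripts with at least 5% of their gene, and 6 of the 10 genes had 1 such transcript. Of the 25 chaperone transcripts tested for expression, 1 was called higher (HSPA8-224) and 1 lower (HSP90AA1-201), where 2.45% of all transcripts were called higher and 3.00% lower. Of the 22 tested for usage in 7 genes, 0 were called by diffSpliceDGE and 0 had an unadjusted p under 0.05, against 1.12% of all transcripts called, and limma diffSplice also called 0. The largest change of a mean share was 9.53 percentage points, for HSPH1-209.

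HSPA9 was the most divided gene, with 7 transcripts of at least 5%. The full-length HSPA9-201 held 41.1 ± 10.4% with shPTBP1 and 41.6 ± 3.71% with shControl, and HSPA9-220, another coding transcript, held 12.4 ± 2.66% and 11.2 ± 1.98%. Transcripts annotated with a retained intron, which are not expected to make the full protein, together held 38.0 ± 9.22% and 35.5 ± 2.51% of HSPA9 (exact permutation p = 0.686). They were HSPA9-211, HSPA9-207, HSPA9-204 and HSPA9-209 above 5%. HSPA9-207 was the one with the widest gap, at 6.36%, 11.8%, 15.2% and 18.1% in shPTBP1 replicates 1 to 4 and 8.39% to 9.27% with shControl, and shPTBP1 replicate 1 was below all shControl libraries. HSPA9-206 held 5.45 ± 3.31% and 7.75 ± 1.45%.

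In HSPA4, HSPA4-201 held 87.7 ± 5.07% and 86.9 ± 1.19% of the counts with shPTBP1 and shControl, and the retained-intron transcript HSPA4-203 the rest, 12.3% and 13.1%. In HSPH1, HSPH1-209 held 39.7 ± 11.5% and 49.2 ± 3.22%, HSPH1-201 held 40.0 ± 1.84% and 39.6 ± 2.02%, and HSPH1-202 held 7.90 ± 2.43% and 5.84 ± 4.01%. The gap of HSPH1-209 was widest in shPTBP1 replicate 4, at 23.2%, the library with the counts on HSPH1-203. HSPA5-201 held 99.3% and 99.5% of HSPA5 and HSP90AB1-203 held 98.6% and 98.7% of HSP90AB1.

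**Figure D4:**
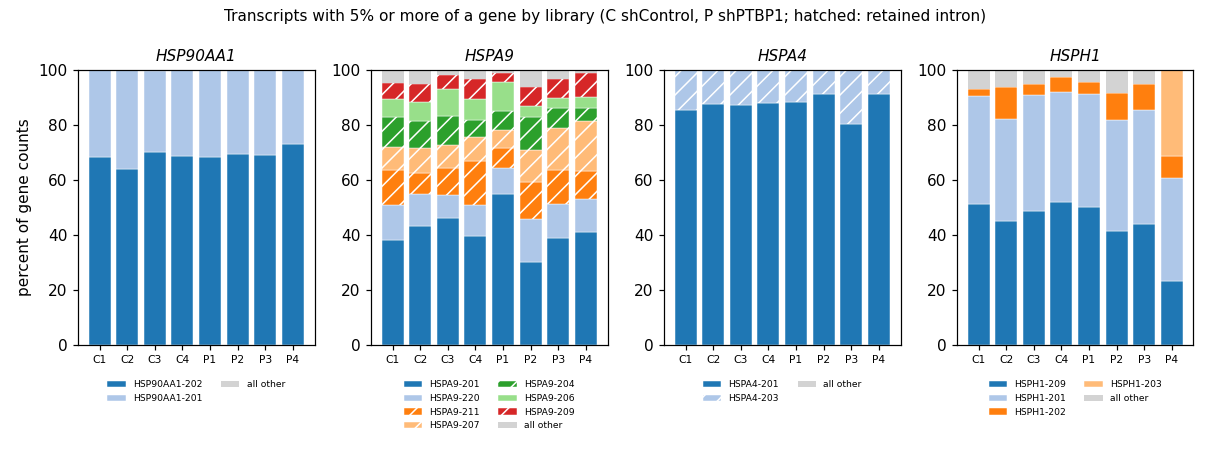
Percent of the counts of HSP90AA1, HSPA9, HSPA4 and HSPH1 (vertical axis) on each transcript with at least 5% of the gene, per library (C1 to C4 shControl, P1 to P4 shPTBP1), with retained-intron transcripts hatched. HSPA9 is split among 7 transcripts in both groups, and HSPH1-203 appears in shPTBP1 replicate 4 alone.

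The rest of the chaperone system was examined through 117 other genes, listed with earlier results of these data known. Of 87 that could be tested, 0 were called higher by edgeR and 5 lower, and 13 did not overlap between groups, with a median log2 fold change of -0.05. Over all genes tested, 12.7% did not overlap and 3.19% were called lower. The ER stress response list had 3 of 20 tested genes called lower, the chaperones HYOU1 and CALR and the disulfide isomerase PDIA3. Its members went both ways, with log2 fold changes from -0.98 to 0.24 and a median of -0.07. The groups did not overlap for 5 of the 20, these 3 and the uncalled HSP90B1 (lower) and DDIT3 (higher). DDIT3 was at 433 ± 7.23 CPM with shPTBP1 and 372 ± 22.8 CPM with shControl (edgeR adjusted p = 0.0569). HYOU1, the ER member of the HSP110 family, was at 96.5 ± 24.9 CPM with shPTBP1 and 147 ± 4.83 CPM with shControl (log2 fold change -0.61, edgeR adjusted p = 0.0200). CALR, a lectin chaperone, was at 1151 ± 59.2 and 1342 ± 70.1 CPM (-0.22, edgeR adjusted p = 0.0434), and PDIA3, its oxidoreductase partner, at 192 ± 17.7 and 248 ± 18.0 CPM (-0.37, edgeR adjusted p = 0.0208). PDIA3 was not called when protein-coding transcripts alone were summed, at -0.17 (adjusted p = 0.496), CALR was called in 0 of 8 fits without 1 library, HYOU1 in 3 and PDIA3 in 4.

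The HSP90 cochaperones had 1 of 15 called lower, the myosin chaperone UNC45A, at 6.31 ± 3.69 CPM with shPTBP1 and 17.3 ± 4.63 CPM with shControl (log2 fold change -1.45, edgeR adjusted p = 0.0391). The mitochondrial quality control list had 1 of 16 called lower, TRAP1, the mitochondrial HSP90, at 13.6 ± 2.37 and 27.8 ± 11.1 CPM (-1.03, edgeR adjusted p = 0.0490), on the HSP90 family list as well (1 of 2). UNC45A was called in 1 of 8 and TRAP1 in 2 of 8 fits without 1 library. HYOU1 was also the 1 called gene of the 5 tested other HSP70 and HSP110 genes. The J-domain proteins (27 tested), nucleotide exchange factors (9), heat shock factors and regulators (3) and small heat shock proteins (1) had 0 calls in either direction.

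**Figure D5:**
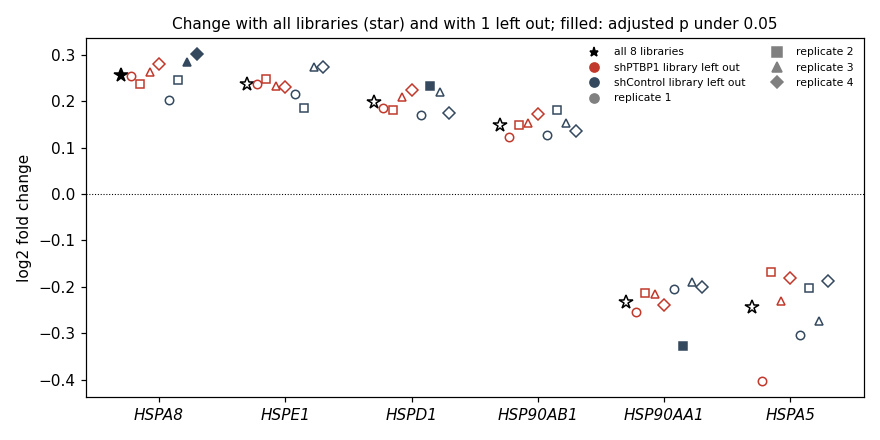
Log2 fold change (vertical axis) of the 6 chaperone genes with the widest change, with all 8 libraries (star) and with each library left out (symbol for the replicate, color for its group), filled where the adjusted p was under 0.05. HSPA8 stays between 0.20 and 0.30 and is filled in 2 of 8 such fits, and HSP90AA1 and HSPD1 are filled when shControl replicate 2 is left out.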

How the data were processed

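RNA from 8 MOLM-13 libraries was sequenced on the nanopore platform. Per the labels and the study's methods, the authors mapped reads with minimap2 (build hg38), kept those of high mapping quality, and made whole-number transcript counts with StringTie. They tested them with DESeq2, versions and annotation not given in the sources used here. The deposited counts were not normalized. A deposited table of counts scaled by library total was not used.

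Transcripts were joined to GENCODE version 44 (GRCh38) by identifier without version, 252562 of 254070, and summed per gene. The counts of the others were 0.0876% to 0.115% of a library. Counts were normalized by TMM, separately for genes and transcripts, so the CPM of a transcript can pass that of its gene. They were tested with edgeR 4.0.16 (filterByExpr, minimum count 10, group alone), with DESeq2 1.42.0 and limma 3.58.1 as alternatives, in R 4.3.3. Usage was tested with diffSpliceDGE (adjusted p under 0.05, at least 10 percentage points). Intervals of log2 fold changes are 95% intervals of this fit. Single values were compared by the exact two-sided permutation test over 70 assignments. The scripts were tested on simulated data.

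The members and lists were chosen with earlier results of these data known. All 10 members, transcripts with at least 5% of a member, the called genes of each list and PTBP1 are named. Promoter windows come from RefSeq (GRCh38.p14). Lengths per kilobase are the mean lengths of the transcripts, weighted by counts. Between libraries of a group, counts varied beyond counting error (biological coefficient of variation 10.3%).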

Additional observations from a re-analysis of the deposited data

Results flagged for a closer look

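Of 70 groups of 4 libraries examined for the chaperones, 6 held a library whose gap to the others was above Dixon's critical value. For independent, normally spread values about 5% of groups are flagged. These groups share libraries and genes, and some values are 0, so the count of 6 cannot be set against that rate. HSP90AA1 was at 852 CPM in shControl replicate 2, far below the other 3 shControl libraries. The same library held HSP90AA1 at 21.3% of the HSP90 counts, again the low value of its group. In HSPA9, HSPA9-204 was at 6.34% in shControl replicate 4 and HSPA9-206 at 10.4% in shPTBP1 replicate 1. HSPE1-201 was at 96.8% of HSPE1 in shControl replicate 1. HSPH1-203 was at 31.3% of HSPH1 in shPTBP1 replicate 4 and at 0% in the other libraries.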

How the results depend on the processing

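HSPA8 was called higher in 9 of 10 other settings with all libraries, some of which could hardly move it. Summing HSPH1 without HSPH1-203 left HSPA8 counts as they were, and pseudogenes added 2 counts to 64168. With the replicate block 0 chaperone genes were called (HSPA8 edgeR adjusted p = 0.0673). Over all genes tested, same-numbered libraries did not deviate together (correlations -0.0328 to 0.00889). The labels do not say whether the numbers pair libraries, and a pairing that touches some genes alone was not tested. The block left 137 genes higher and 186 lower of all genes, beside 179 and 242 without it, and 0 chaperone transcripts higher. DESeq2 called 3 chaperone genes and 2 chaperone transcripts higher, and no filter on low counts gave 2 transcripts higher. Leaving out 1 library gave 0 to 1 genes higher, 0 to 1 lower, 0 to 1 transcripts higher and 0 to 2 lower. All-gene counts fell to 77 higher and 107 lower without shPTBP1 replicate 3. Usage calls were 0 under every setting run. The sign of small changes turned: HSPA9 was -0.0073 with a mean of at least 50 counts and -0.0166 with protein-coding transcripts alone, and between -0.0567 and 0.0693 without 1 library, which included -0.0099 without shControl replicate 4. HSPA4 was between -0.0174 and 0.203, at -0.0045 without shControl replicate 4, and HSPH1 between -0.0259 and 0.165, or -0.0658 without HSPH1-203, a setting added after seeing the data. The HSPE1 share difference ran from -0.414 to 0.825 points and that of HSPH1 from -2.12 to 1.62. The cause of these turns was not tested. Genes with 58 to 173 counts per library (HSPA5, HSPA9, HSPA4 and HSPH1) had the widest intervals, the widest that of HSPA5 from -0.57 to 0.08 on the log2 scale. The part of depth and of the spread between libraries in these widths was not tested. Among the other chaperone genes called lower, CALR lost its call with the block (adjusted p = 0.0686), thinning (0.0525) or no filter (0.0553), TRAP1 with DESeq2 (0.0517), limma-voom (0.104) or protein-coding transcripts alone (0.0562), and UNC45A with limma-voom (0.0506). With a mean of at least 50 counts TRAP1 and UNC45A gave no value, nor did UNC45A with DESeq2.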
